A study of Mus musculus with 15 samples.

Results

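The comparison described here is that of liver allografts taken on day 8 with syngeneic liver grafts taken on day 5, in mice. The members are all 567 mouse miRNAs of the array, measured on the 6 arrays whose titles name these groups (3 allogeneic day 8 and 3 syngeneic day 5) out of 15 arrays in the series. Orthotopic liver transplantation was performed without immunosuppressive drugs, and such allografts are accepted spontaneously in this model. Per the labels, the mice were male, the donors were B10.BR (H2-Kk) and the recipients were B10.D2 (H2-Kd). The labels give this allogeneic pair for the syngeneic arrays as well, so those arrays were assigned by their titles, and the strain of the syngeneic grafts was taken as unknown. Because the syngeneic grafts were collected on day 5 only, the type of graft and the day after transplantation cannot be told apart in this comparison. Whole graft RNA was hybridized, so fewer cells of a type and less miRNA per cell cannot be told apart either.

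MiRNAs are short RNAs cut from hairpin precursors. They bind messenger RNAs mainly through the seed, bases 2 to 8 from the 5′ end, and lower their translation and stability. In the liver, miR-122 is the characteristic miRNA of hepatocytes, whereas miR-223, miR-155, miR-142 and miR-342 are characteristic of leukocytes, which enter an allograft during the immune response. MiRNAs cut from the same primary transcript are often, but not always, expressed together.

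The mature sequences of the miRNAs with the largest rises are shown first, since they carry the comparison. The seed is in capitals, sequences are from RefSeq (GRCm38.p6), and 88 of the 103 tested miRNAs had an entry that was used.
miR-342-3p: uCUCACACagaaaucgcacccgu
miR-188-5p: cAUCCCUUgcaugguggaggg
miR-15b: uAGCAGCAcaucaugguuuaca
miR-223: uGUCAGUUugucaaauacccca
miR-155: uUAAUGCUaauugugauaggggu
miR-652: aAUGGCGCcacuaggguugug
miR-146a: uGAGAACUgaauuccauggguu
miR-451: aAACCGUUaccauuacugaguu
These 8 sequences have 8 different seeds. MiR-342-3p lies at chr12:108658680-108658702 on the plus strand, within the span of Evl, and miR-15b at chr3:69009775-69009796 on the plus strand, within the span of Smc4. MiR-223 lies at chrX:96242884-96242905 and miR-155 at chr16:84714143-84714165, both on the plus strand and outside the span of any protein-coding gene.

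Among the miRNAs that fell, several shared or nearly shared a seed, which is why they are shown together.
miR-30a: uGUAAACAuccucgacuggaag
miR-30e: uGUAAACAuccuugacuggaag
miR-29b: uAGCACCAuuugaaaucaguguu
miR-29c: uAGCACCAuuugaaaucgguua
miR-101a: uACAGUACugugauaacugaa
miR-101b: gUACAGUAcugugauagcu
miR-144: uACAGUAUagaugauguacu
MiR-30a and miR-30e have the same seed, as do miR-29b and miR-29c. The seeds of miR-101a and miR-144 differ in their last base, and that of miR-101b holds the letters they share (ACAGUA) moved by 1 position.

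The signal of a miRNA is given as a relative signal, in which 100 is the 75th percentile of the array over the 52 miRNAs detected on all 15 arrays, and values below 2.70 were raised to that floor. Detection required 1 or more probes of the miRNA with at least 0.5 of their spots well above background. Of the 567 miRNAs, 445 were detected on none of the 6 arrays, 63 on all 6, 97 on all 3 day 8 arrays and 65 on all 3 syngeneic arrays. Testing was limited to the 103 miRNAs that every array of at least 1 of the 5 groups detected. They were fitted together with limma on the 15 arrays, and calls were made where the p-value after Benjamini-Hochberg adjustment was under 0.05. The syngeneic arrays were dimmer, with 75th percentiles of 395 to 616 intensity units against 718 to 829 on day 8, and they differed more among themselves. The median SD of the log2 signal was 0.381 in the syngeneic grafts and 0.101 on day 8, and the SD was larger in the syngeneic grafts for 93 of the 103 miRNAs. Per the study's description of the arrays, 3 mice were analyzed at each time point. The p-values measure the spread between the arrays within a group, pooled over all 5 groups and not taken from the compared groups alone. In that pool, Pearson's r of day 100 replicate 1 with the other day 100 arrays was 0.70 and 0.72. All other pairs within a group had 0.92 or above. Slide 1 held the 3 day 8 arrays and syngeneic replicates 1 and 2, and slide 2 held syngeneic replicate 3.

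The labelled tissue was checked against cell type markers. Of the 6 hepatocyte miRNAs listed, 5 were detected on all 6 arrays, and miR-802 was detected on none. All 8 muscle, neural and islet miRNAs (for example miR-1, miR-133a and miR-375) were undetected on the 6 arrays. Of 6 biliary epithelial miRNAs, miR-200a and miR-200b were detected on 1 array in each group and the other 4 on none.

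On day 8, 42 of the 103 tested miRNAs were called different from the syngeneic grafts, which is 40.8%. Of these, 24 were higher (23.3% of those tested) and 18 were lower (17.5%). The median log2 fold change of all tested miRNAs was 0.14, with a median standard error of 0.24. A change of at least 2-fold was present in 14 of the miRNAs called higher and in 10 of those called lower. The 3 day 8 arrays did not overlap the 3 syngeneic arrays in 39 of the 42 called miRNAs, against 51.5% of all tested miRNAs. The exceptions were miR-20b, miR-19a and miR-690. With the slide as a block, 46 miRNAs were called (32 higher and 14 lower), and on slide 1 alone 43 (32 higher and 11 lower). All 24 rises were also called in both of these fits, whereas 14 of the 18 falls were called with the block and 9 on slide 1 alone. Of the arrays compared, slide 2 held syngeneic replicate 3 alone, so neither fit tells a slide effect from that array. Leaving that array out also gave 46 calls (32 higher and 14 lower). Without scaling between arrays the split was 37 higher and 4 lower, and with a normexp background correction 7 higher and 17 lower. The normexp correction added an offset of 50 intensity units before the scaling, and the median of all tested miRNAs was then -0.23.

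**Figure D1:**
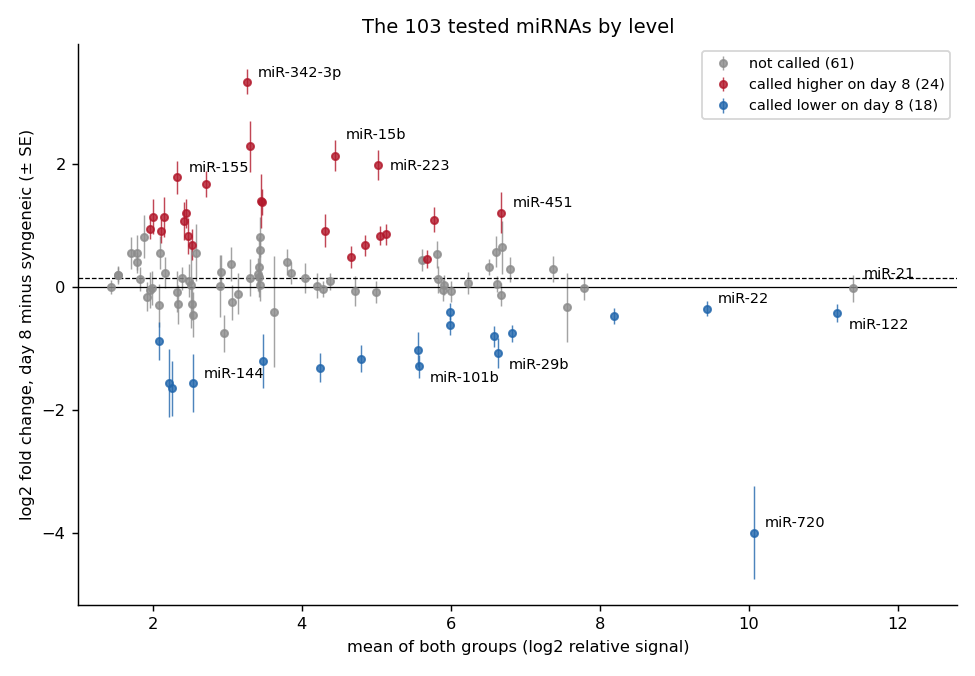
The 103 tested miRNAs, with the mean log2 relative signal of both groups on the x axis and the log2 fold change (day 8 minus syngeneic, ± SE from limma) on the y axis. Red points (24) were called higher and blue points (18) lower, and the dashed line is the median of 0.14. The rises of at least 2-fold were in miRNAs with day 8 signals of up to 158, the highest in miR-451, and miR-720 stands apart with a fall of 4.01.

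More miRNAs passed the detection filter through day 8 than through the syngeneic grafts, so counts of rises among low miRNAs are tied to how they were chosen for testing. Of the 103 tested miRNAs, 34 were detected on all day 8 arrays but not on all syngeneic arrays, and of these 13 were called higher and the others were not called. Among the 63 miRNAs detected on all 6 arrays, 11 were called higher and 14 lower. Of the 2 miRNAs detected on all syngeneic arrays but not on all day 8 arrays, both were called lower. The part of the dimmer syngeneic arrays in the rises of low miRNAs was not tested.

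Of the leukocyte miRNAs, miR-342-3p, miR-223, miR-155 and miR-146a were higher on day 8, and miR-342-3p had the largest rise of all tested miRNAs. The leukocyte list holds 12 miRNAs, of which 6 were tested and these 4 were called higher, where 23.3% of all tested miRNAs were. Of the 6, miR-342-3p, miR-155 and miR-142-5p were detected on all day 8 arrays but not on all syngeneic arrays. Of all 34 tested miRNAs detected in that way, 13 were called higher, so 23.3% is not a like base for these members. Of the 4, miR-223 and miR-146a were detected on all 6 arrays, miR-342-3p on 1 and miR-155 on none of the syngeneic arrays. With a normexp background correction, miR-342-3p and miR-223 were called and miR-155 and miR-146a were not. The other 6 (miR-150, miR-342-5p, miR-146b, miR-181a, miR-181b and miR-181d) were detected on none of the 6 arrays. The summed relative signal of the 6 tested members was 75.2 to 182 in the syngeneic grafts and 243 to 285 on day 8.

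MiR-342-3p, which is abundant in leukocytes, had relative signals of 2.70, 2.70 and 3.72 in the syngeneic grafts and 28.8, 32.6 and 30.1 on day 8. Only 1 syngeneic array detected it, so its log2 fold change of 3.34 (SE 0.20, limma adjusted p = 4.6e-08) rests on values at or close to the floor in the syngeneic grafts. MiR-223, which is enriched in neutrophils and monocytes, had signals of 11.96, 15.8 and 23.0 in the syngeneic grafts and 62.2, 60.5 and 73.3 on day 8. It was detected on all 6 arrays and rose 3.98-fold (log2 fold change 1.99, SE 0.24, limma adjusted p = 5.9e-05). In both miRNAs, every day 8 array was well above every syngeneic array.

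MiR-155, which is induced in activated lymphocytes and macrophages, was at the floor of 2.70 on all 3 syngeneic arrays and at 8.91, 10.7 and 8.61 on day 8. As no syngeneic array detected it, its level was at least 2.625-fold higher on day 8 (limma adjusted p = 0.00029). At-least values hold only under the processing used for the calls. Over the alternatives, the log2 fold change of miR-155 ranged from 0.16 to 3.79. MiR-146a, a feedback inhibitor of Toll-like receptor signaling, had signals of 6.53, 6.64 and 7.43 in the syngeneic grafts and 17.0, 19.3 and 17.5 on day 8. The rise was 2.61-fold (log2 fold change 1.39, SE 0.21, limma adjusted p = 0.00031). For an at-least value, the mean log2 signal of the group that detected the miRNA was set against the lowest detected signal of each array of the other group, or against the miRNA's own signal or the floor where either was higher.

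Both arms of miR-142, which is expressed throughout the blood cell lineages, were not called. MiR-142-3p had signals of 48.6, 145 and 78.2 in the syngeneic grafts and 128, 113 and 148 on day 8, and syngeneic replicate 2 lay within the day 8 range. Its log2 fold change was 0.65 (SE 0.43, limma adjusted p = 0.28). MiR-142-5p gave 0.56 (SE 0.46, limma adjusted p = 0.39), with the same syngeneic array as the highest of the 6.

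MiR-155 and miR-146a are also the members of the NF-kB induced list that were called, beside 23.3% of all tested miRNAs called higher. As given above, that share is not a like base for miR-155. Of the 6 miRNAs listed, 3 were tested, and the third was miR-21, which is induced in injured liver. MiR-21 had signals of 1981, 2721 and 3751 in the syngeneic grafts and 2671, 2385 and 3031 on day 8, so the groups overlapped (log2 fold change -0.02, SE 0.22, limma adjusted p = 0.96). The result for miR-21 depended on the scaling, as quantile normalization gave 0.77 (limma adjusted p = 0.0045).

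**Figure D2:**
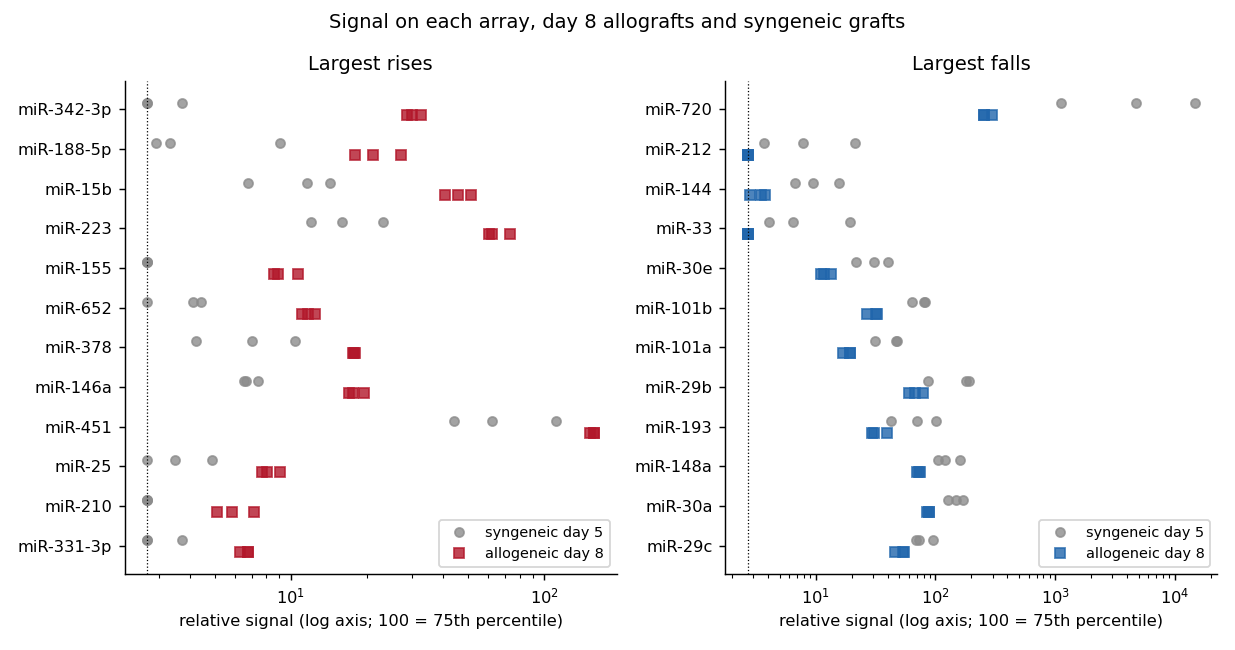
Relative signal on each array (log x axis, 100 = 75th percentile) for the 12 largest rises (left) and the 12 largest falls (right) among called miRNAs whose arrays did not overlap; gray circles are the 3 syngeneic day 5 arrays, colored squares the 3 allogeneic day 8 arrays, and the dotted line is the floor of 2.70. The day 8 arrays lie close together in most miRNAs, while the syngeneic arrays are wider apart, most of all in miR-720.

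Of the other large rises, miR-188-5p, miR-15b, miR-652 and miR-378 rose on every day 8 array. MiR-15b, which targets the antiapoptotic gene Bcl2, had signals of 11.6, 6.74 and 14.3 in the syngeneic grafts and 40.6, 51.5 and 45.7 on day 8. This was a 4.41-fold rise (log2 fold change 2.14, SE 0.25, limma adjusted p = 4.7e-05). MiR-188-5p had 9.05, 3.32 and 2.93 in the syngeneic grafts, none of them detected, and 17.9, 21.1 and 27.2 on day 8, so that it was at least 4.41-fold higher (limma adjusted p = 0.00099). That value holds only under the processing used for the calls. The log2 fold change of miR-188-5p was 1.26 with the brightest probe and 1.00 with the mean log2 over probes, and it was called in both. With a normexp background correction its log2 fold change was 0.11, and it was not called (limma adjusted p = 0.69). MiR-15b and miR-188-5p lie within the spans of Smc4 and Clcn5.

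MiR-652, which lies within the span of Tmem164, had signals of 4.11, 2.70 and 4.40 in the syngeneic grafts (detected on 2 of 3 arrays) and 11.7, 12.4 and 11.0 on day 8. It rose 3.19-fold (log2 fold change 1.68, SE 0.22, limma adjusted p = 8.5e-05). It was called under 24 of 25 alternatives, which gave log2 fold changes of 0.08 to 2.04. MiR-378 had 10.3, 4.20 and 7.003 in the syngeneic grafts (detected on 2 of 3) and 17.8, 17.5 and 17.9 on day 8. Its rise of 2.64-fold had a larger error (log2 fold change 1.40, SE 0.44, limma adjusted p = 0.023). The SD of its log2 signal was 0.65 in the syngeneic grafts, 0.016 on day 8 and 1.11 on day 100, and all groups enter the SE. MiR-378 was called under 15 of 25 alternatives, and the call was lost without syngeneic replicate 2 (1.06, limma adjusted p = 0.11) and without any one of the day 8 arrays.

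The last members of the 12 largest rises were close to the floor in the syngeneic grafts. MiR-25 had 3.48, 2.70 and 4.88 in the syngeneic grafts and 7.66, 8.07 and 9.02 on day 8, and miR-331-3p had 2.70, 2.70 and 3.71 against 6.27, 6.79 and 6.76. Each was detected on 1 syngeneic array, and their log2 fold changes were 1.20 and 1.14. MiR-210, the miRNA most strongly induced by hypoxia, was at the floor on all syngeneic arrays and at 5.83, 7.18 and 5.12 on day 8, which was at least 1.68-fold higher (limma adjusted p = 0.0066). With a normexp background correction the values of miR-25, miR-210 and miR-331-3p turned to between -0.15 and -0.10 and were not called. The median of all tested miRNAs was -0.23 in that setting, and the part of its offset in these values was not tested. MiR-34a, the p53-induced miRNA listed beside miR-210, was not called, with 4.99 to 8.92 in the syngeneic grafts and 7.34 to 11.5 on day 8.

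The 2 tested erythroid miRNAs moved in opposite directions although they are cut from the same transcript. MiR-144 and miR-451 lie within 161 bases of each other, at chr11:78073047-78073066 and chr11:78073186-78073207 on the plus strand. MiR-451, which is abundant in red blood cells and is made without the enzyme Dicer, had signals of 111, 44.2 and 62.1 in the syngeneic grafts and 152, 157 and 158 on day 8, a rise of 2.31-fold (log2 fold change 1.21, SE 0.34, limma adjusted p = 0.013). MiR-144 had 9.58, 15.5 and 6.67 in the syngeneic grafts and 3.78, 2.85 and 3.51 on day 8, where no array detected it, so it was at least 2.97-fold lower (limma adjusted p = 0.018). Both calls were lost without syngeneic replicate 2 (0.91 and -1.25, limma adjusted p = 0.063 and 0.086), and that of miR-144 also without day 8 replicate 2 (-1.45). The third erythroid miRNA, miR-486, was detected on none of the 6 arrays.

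All 5 tested hepatocyte miRNAs were called lower on day 8, where 17.5% of all tested miRNAs were, and their median log2 fold change was -0.47 against 0.14 for all tested miRNAs. Of the 5, 3 were called lower with the slide as a block and 1 on slide 1 alone. Without scaling none was called and their median was 0.16. Their summed relative signal was 3053 to 3645 in the syngeneic grafts and 2322 to 2510 on day 8. MiR-122, the most specific of them, had signals of 2531, 2641 and 2947 in the syngeneic grafts and 2095, 2063 and 1908 on day 8. It fell by 0.42 on the log2 scale (SE 0.15, limma adjusted p = 0.038). MiR-192 and miR-194, which are cut from a common transcript at chr19:6264658-6264877, fell by 0.47 and 0.41. These 3 falls were small and depended on the scaling, because without scaling miR-122, miR-192 and miR-194 were 0.21, 0.16 and 0.22 higher on day 8, and with quantile normalization miR-122 and miR-192 were 0.31 and 0.40 higher, none of them called. With the slide as a block, miR-122 and miR-194 were not called (limma adjusted p = 0.081 for both).

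The remaining hepatocyte miRNAs changed more. MiR-148a, which targets the DNA methyltransferase gene Dnmt1, had signals of 105, 120 and 161 in the syngeneic grafts and 74.5, 69.7 and 72.5 on day 8 (log2 fold change -0.81, SE 0.16, limma adjusted p = 0.0017). MiR-193 had 42.3, 101 and 70.3 in the syngeneic grafts and 39.3, 29.8 and 30.5 on day 8, where the closest arrays differed by little (log2 fold change -1.03, SE 0.29, limma adjusted p = 0.013). Leukocyte signal was higher on the same day 8 arrays, as given above, and its part in these falls was not tested. Without scaling the values were -0.18 for miR-148a and -0.40 for miR-193, and neither was called. The call of miR-193 was also lost on slide 1 alone (limma adjusted p = 0.055) and without syngeneic replicate 2 (-0.73, limma adjusted p = 0.061).

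The miR-101, miR-30 and miR-29 families held 6 of the other falls. Both members of the miR-101 family were called lower, beside 17.5% of all tested miRNAs. MiR-101b had 63.2, 80.7 and 81.2 in the syngeneic grafts and 32.5, 27.1 and 32.2 on day 8 (log2 fold change -1.29, SE 0.19, limma adjusted p = 0.00023). MiR-101a, which like miR-101b targets the histone methyltransferase gene Ezh2, had 31.5, 47.1 and 48.0 in the syngeneic grafts and 19.2, 16.8 and 19.5 on day 8 (log2 fold change -1.17, SE 0.22, limma adjusted p = 0.0011). Both were lower on every day 8 array. Without scaling they were at -0.66 for miR-101b and -0.54 for miR-101a and were not called (limma adjusted p = 0.12 and 0.19).

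Of the 5 tested miR-30 miRNAs, miR-30e and miR-30a were called lower and the other 3 were not called, where 17.5% of all tested miRNAs were called lower. Without scaling, miR-30e and miR-30a were at -0.69 and -0.13, and none of the 5 was called. MiR-30e had signals of 21.7, 40.5 and 30.7 in the syngeneic grafts and 11.8, 11.0 and 13.4 on day 8 (log2 fold change -1.32, SE 0.24, limma adjusted p = 0.00099). MiR-30a had 128, 148 and 169 in the syngeneic grafts and 84.6, 89.1 and 88.1 on day 8 (log2 fold change -0.76, SE 0.14, limma adjusted p = 0.00099). MiR-30c, with the same seed and a locus in the same 3098 bases as that of miR-30e, overlapped between groups (log2 fold change -0.08, SE 0.18, limma adjusted p = 0.81). The opposite arms miR-30a* and miR-30e* were at -0.25 and -0.29 and were not called.

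In the miR-29 family, which targets collagen messenger RNAs, miR-29b and miR-29c were called lower and miR-29a was not. Of all tested miRNAs, 17.5% were called lower. MiR-29b had signals of 86.3, 182 and 190.3 in the syngeneic grafts and 60.3, 67.1 and 78.8 on day 8 (log2 fold change -1.08, SE 0.25, limma adjusted p = 0.0044). MiR-29c had 69.4, 73.0 and 96.3 in the syngeneic grafts and 45.9, 53.8 and 54.9 on day 8 (log2 fold change -0.62, SE 0.17, limma adjusted p = 0.012). MiR-29a was at 0.29 (SE 0.20, limma adjusted p = 0.32). MiR-29b has a locus beside miR-29c on chromosome 1 and another beside miR-29a on chromosome 6, and the array does not tell their products apart. Without scaling, miR-29b was at -0.45 and miR-29c at 0.0133, and neither was called.

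The largest fall of all was that of miR-720, which has been reclassified as a fragment of a transfer RNA. Its signals were 1125.5, 14781 and 4767 in the syngeneic grafts and 296, 256 and 253 on day 8 (log2 fold change -4.01, SE 0.76, limma adjusted p = 0.0011). The syngeneic arrays alone spanned a range wider than most differences reported here. MiR-212 had 3.67, 21.4 and 7.79 in the syngeneic grafts and was at the floor on day 8, which was at least 3.11-fold lower (limma adjusted p = 0.012). MiR-33, which lies within the span of Srebf2 and represses cholesterol export genes, had 4.11, 19.4 and 6.50 and was likewise at the floor on day 8, at least 2.95-fold lower (limma adjusted p = 0.038). In miR-720, miR-212 and miR-33, syngeneic replicate 2 was the highest array and replicate 1 the lowest of the syngeneic grafts. Without replicate 2 their log2 fold changes were -3.11, -0.98 and -0.93, and without replicate 1 they were -4.97, -2.25 and -2.06. MiR-33 was not called without replicate 2 (limma adjusted p = 0.18) or without any one of the day 8 arrays.

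**Figure D3:**
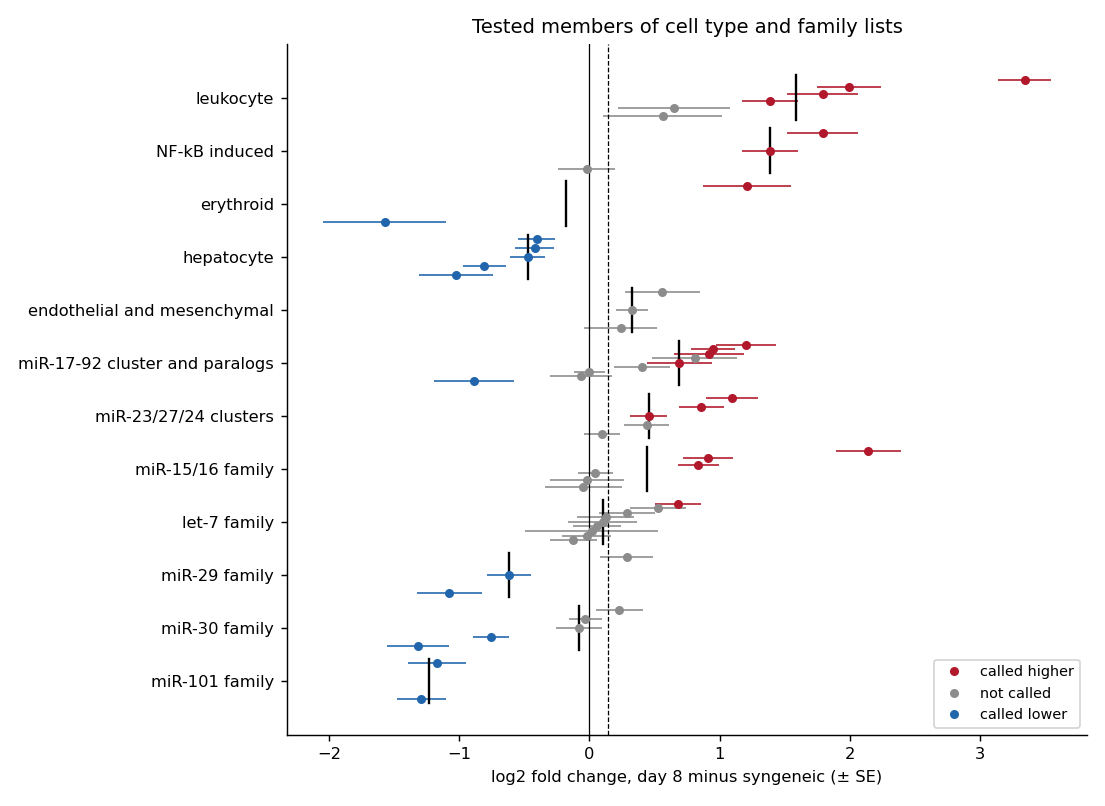
Log2 fold change (day 8 minus syngeneic, ± SE from limma) of the tested members of 12 lists of cell type markers and miRNA families; red points were called higher, blue lower and gray not called, the black bars are list medians and the dashed line is the median of all 103 tested miRNAs (0.14). The leukocyte members lie at 0.56 or above and all 5 hepatocyte members below 0, whereas the erythroid pair is split.

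The other called miRNAs are described by shared seed and locus. The seed AGCAGCA is shared by 6 tested miRNAs, of which 3 were called higher, beside 23.3% of all tested miRNAs. These were miR-15b, miR-322 and miR-16 (log2 fold changes 2.14, 0.91 and 0.84). MiR-322, miR-195 and miR-497 were each detected on all day 8 arrays but on only 1 syngeneic array. Of all 34 tested miRNAs detected on all day 8 but not all syngeneic arrays, 13 were called higher. The share of 23.3% is therefore not a like base for these members. MiR-15a, miR-195 and miR-497 were not called (0.05, -0.02 and -0.05). MiR-16 is cut both beside miR-15b on chromosome 3 and beside miR-15a on chromosome 14. MiR-15a had signals of 80.9, 99.6 and 111 in the syngeneic grafts and 96.2, 96.6 and 106 on day 8. With a normexp background correction miR-322 turned to -0.21, while miR-15b and miR-16 stayed higher and miR-195 and miR-497 were called lower.

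The miR-23a, miR-27a and miR-24 cluster on chromosome 8 spans 334 bases, and all 3 of its members were called higher, beside 23.3% of all tested miRNAs. MiR-24 is also cut beside miR-27b on chromosome 13, and the array does not tell the products apart. The call of miR-24 held under 15 of 27 alternatives. MiR-23a had signals of 27.5 to 49.9 in the syngeneic grafts and 73.6 to 87.3 on day 8 (2.14-fold), and miR-27a rose 1.81-fold and miR-24 1.37-fold. Of the paralogs on chromosome 13, miR-23b was at 0.44 and miR-27b at 0.10, and neither was called. MiR-27a and miR-27b have the same seed.

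Of the 9 tested miRNAs of the miR-17-92 cluster and its paralogs, which promote cell proliferation, 4 were called higher and 1 lower, beside 23.3% and 17.5% of all tested miRNAs. Of the 4, miR-25, miR-93 and miR-20b were each detected on 1 syngeneic array and on all day 8 arrays. For them, too, 23.3% is not a like base. MiR-25 and miR-93, in the cluster within Mcm7 on chromosome 5, had log2 fold changes of 1.20 and 0.95, and miR-106b of the same cluster was at 0.81 without being called (limma adjusted p = 0.061). MiR-92a and miR-20b were at 0.92 and 0.69. MiR-19a fell by 0.89, but only 2 syngeneic arrays and 1 day 8 array detected it. A normexp background correction turned miR-25, miR-93, miR-106b and miR-20b to between -0.19 and -0.0147, none of them called.

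Among 9 let-7 miRNAs, let-7i alone was called (log2 fold change 0.68, SE 0.18, limma adjusted p = 0.0097), beside 40.8% of all tested miRNAs. The median of the family was 0.10. The remaining rises were miR-140*, miR-221 and miR-107, at 1.08, 0.83 and 0.50, and a normexp background correction turned miR-140* and miR-221 to -0.14 and -0.19. The remaining falls were miR-690 and miR-22. MiR-690 was at -1.21, with overlapping arrays. MiR-22 was at -0.35 (SE 0.12, limma adjusted p = 0.038), and with quantile normalization it was called higher instead, at 0.98 (limma adjusted p = 0.0032). Endothelial and mesenchymal miRNAs gave no call among 3 tested of 11 listed, beside 40.8% of all tested miRNAs. MiR-126-3p, an endothelial miRNA, was at 0.32 (SE 0.12, limma adjusted p = 0.0502).

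The G and C content of the mature sequence, which affects hybridization, was compared as a description over the 88 miRNAs with a sequence. Its median was 47.8% in 23 miRNAs called higher, 42.5% in 16 called lower and 42.9% in 49 not called. Across these 88 miRNAs, which share the same 6 arrays, Pearson's r between G and C content and the log2 fold change was 0.20.

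To place day 8 among the allografts, it was compared with the allografts of day 5 and day 14, which lie on either side of it. The comparisons of each day with the syngeneic grafts share the same 3 syngeneic arrays, so only direct differences between days were tested. Against day 5, 2 of 103 miRNAs (1.94%) were called. MiR-342-3p was 1.04 higher on day 8 on the log2 scale (SE 0.20, limma adjusted p = 0.016), with mean relative signals of 3.04 in the syngeneic grafts, 15.1 in the day 5 allografts, 30.5 at day 8, 50.03 at day 14 and 9.65 at day 100. MiR-19a was 1.50 lower than on day 5 (SE 0.31, limma adjusted p = 0.016), with mean signals of 9.11 on day 5 and 3.13 on day 8. The day 5 allografts were hybridized on slide 2 and those of day 8 on slide 1. Only the syngeneic group lay on both slides, with replicates 1 and 2 on slide 1 and replicate 3 on slide 2. A fit with slide as a block called 0 miRNAs with limma (29 at an unadjusted p under 0.05). Its slide term rests on those syngeneic arrays, so day and slide cannot be told apart here. Limma also called 0 without any one of the 3 day 8 arrays or without day 5 replicate 1 (12 to 17 at an unadjusted p under 0.05), 1 without day 5 replicate 3 and 4 without day 5 replicate 2.

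Against day 14, 6 of 103 miRNAs (5.83%) were called, all higher on day 8. This direction depended on the scaling, since median scaling gave 2 higher and 6 lower and no scaling 2 lower alone. The miRNAs were miR-365 (0.79), miR-101b (0.71), miR-26b (0.68), miR-122 (0.63), miR-194 (0.59) and miR-192 (0.49), each with a limma adjusted p of 0.047. Of the 5 tested hepatocyte miRNAs, miR-122, miR-192 and miR-194 were thus called, whereas miR-148a (0.38) and miR-193 (-0.06) were not (limma adjusted p = 0.20 and 0.92). The mean relative signal of miR-122 was 2707 in the syngeneic grafts, 2014 in the day 5 allografts, 2022 at day 8 and 1317 at day 14. Both days were on slide 1, yet limma called 0 miRNAs without any one of the 3 day 8 arrays or without day 14 replicate 1 or 3 (15 to 19 at an unadjusted p under 0.05), and 5 without day 14 replicate 2.

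The values of the largest rises on the other allograft days are given side by side. Relative to the same syngeneic arrays, miR-15b was at 1.54 on day 5, 2.14 on day 8 and 2.28 on day 14 on the log2 scale, and miR-223 was at 1.86, 1.99 and 2.38. MiR-155 was at 1.18, 1.79 and 1.95, and miR-652 at 0.97, 1.68 and 1.93. Among the falls, miR-101b was at -0.76, -1.29 and -2.00, and miR-30e at -0.59, -1.32 and -1.13. None of these neighbouring values other than those of miR-101b on days 8 and 14 was called different between days. MiR-144 had mean signals of 13.4 on day 5, 3.38 on day 8 and 10.4 on day 14, but neither difference from day 8 was called. It was also low on day 100, with a mean of 4.35 and replicate 1 at the floor. Day 8 was not tested against day 100.

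**Figure D4:**
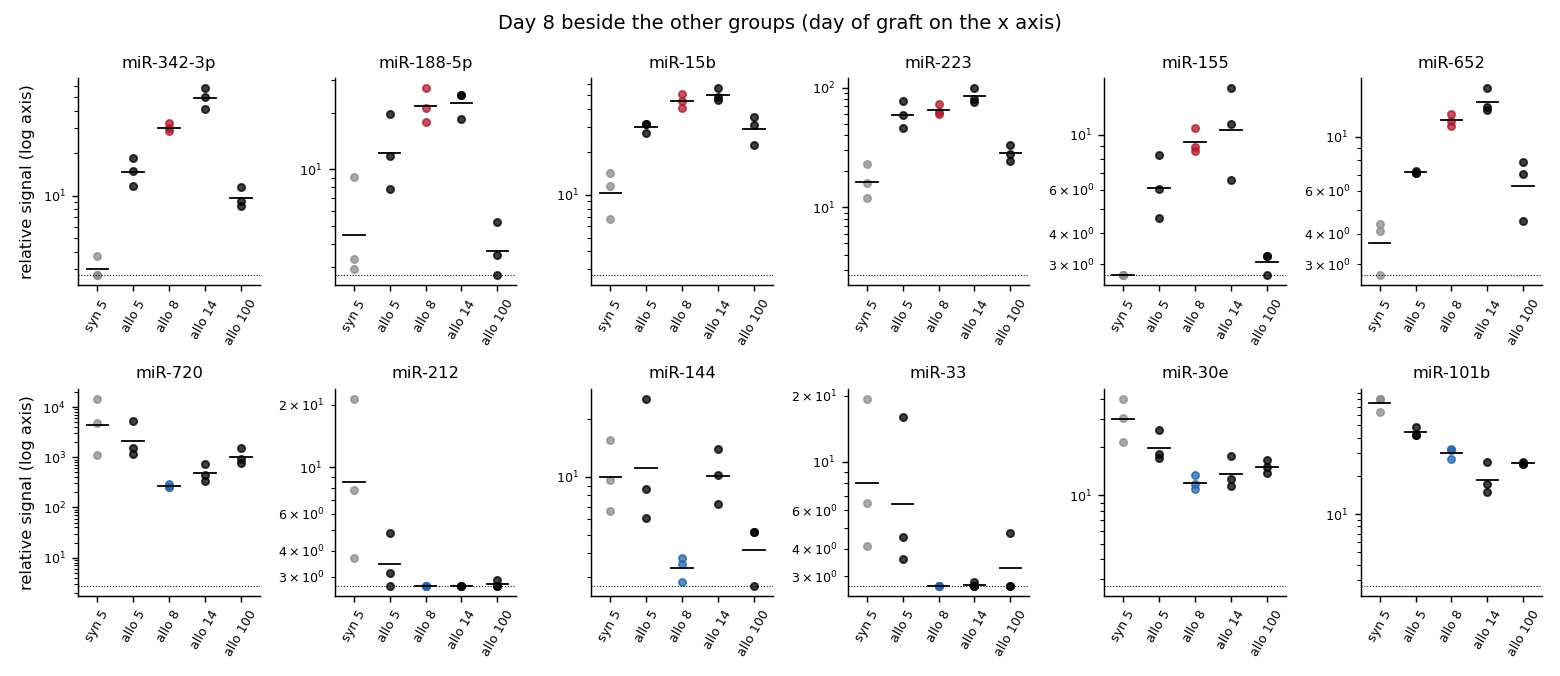
Relative signal (log y axes, a scale for each panel) of the 6 largest rises (top) and 6 largest falls (bottom) in the 5 groups of 3 arrays; points are arrays, bars are group means on the log scale, gray is syngeneic day 5, color is allogeneic day 8 and the dotted line is the floor of 2.70. MiR-342-3p has mean signals of 15.1, 30.5 and 50.03 on days 5, 8 and 14. MiR-144 is low on day 8 between higher arrays on days 5 and 14, and is also low on day 100 (mean 4.35).

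**Figure D5:**
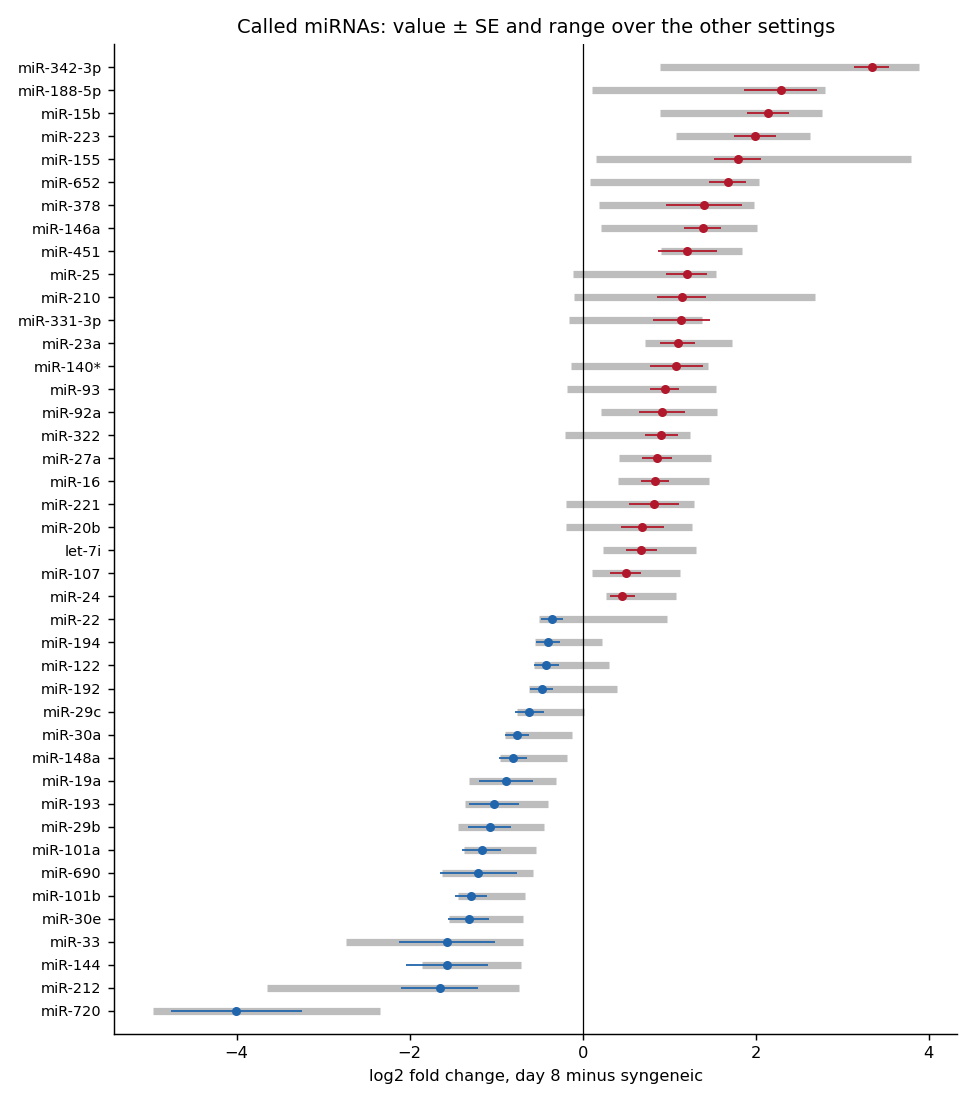
Log2 fold change (day 8 minus syngeneic) of the 42 called miRNAs, with points ± SE from limma and gray bars for the range over all other processing settings tried. The bars of miR-342-3p, miR-15b, miR-223 and miR-27a stay above 0 and these 4 were called under every setting, while those of several low rises and of miR-22, miR-122, miR-192 and miR-194 cross 0.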

How the data were processed

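Liver graft RNA was hybridized to Agilent 1-color mouse miRNA arrays. The authors deposited spot intensities from Feature Extraction (version 9.5.1.1, per the file headers), background-subtracted and without normalization between arrays. The paper's text names Student's t-test and no normalization. The deposited table of processed values was not used. Mean intensities of the spots of each probe, without control and outlier spots, were summed over the 1 to 4 probes of a miRNA. Arrays were scaled, floored and put on the log2 scale as given above, and 8.09% of tested values of the 6 arrays lay at the floor. The linear model of limma (version 3.58.1, R 4.3.3) held a mean for each of the 5 groups, and the fit was tested on simulated data. Arrays per group (3) limit the precision, and an exact permutation test could not go below p = 0.1.

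The members and lists were chosen with earlier results of these data known. Values of every array are given for the 12 largest rises and falls among called miRNAs without overlap. In the other comparisons the 5 largest of each direction are named, with miR-192 added as a list member. List members may be named, and other called miRNAs are grouped by seed or as a remainder. MiR-30a* and miR-30e* were added after their values were seen. Alternatives covered scaling, background, probe summary, filters, floor, samples, blocks, moderation and the methods' t-test. Tables and figures used Python 3.11.15, numpy 2.4.6, pandas 2.3.3 and matplotlib 3.10.9.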

Additional observations from a re-analysis of the deposited data

Results flagged for a closer look

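A test of the difference between allograft days singled out 8 values. Between day 8 and day 5, miR-342-3p was 1.04 higher and miR-19a differed by -1.50 on the log2 scale (limma adjusted p = 0.016 for both). Between day 8 and day 14, miR-365 (0.79), miR-101b (0.71), miR-26b (0.68), miR-122 (0.63), miR-194 (0.59) and miR-192 (0.49) were higher on day 8 (limma adjusted p = 0.047 for each). Groups of 3 arrays were not examined for single outlying arrays.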

How the results depend on the processing

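Of the 42 miRNAs called between day 8 and the syngeneic grafts, miR-342-3p, miR-15b, miR-223 and miR-27a were called with the same direction under every alternative that tested them. The count of calls was 26 with the 75th percentile over all miRNAs, 24 with a normexp background, 21 without a filter on detection, 27 with detection on all 15 arrays and also on all 6 arrays, and 20 with the adjusted form of the methods' t-test (40 unadjusted). Leaving out one array gave 29 to 46 calls, and 29 to 38 of the 42 remained called. Beside miR-378, miR-451, miR-144, miR-193 and miR-33, described above, the call was lost for miR-331-3p and miR-140* without syngeneic replicate 2, for miR-29c without day 8 replicate 1, for miR-92a without day 8 replicate 2, and for miR-122, miR-194, miR-22, miR-24, miR-107, miR-221, miR-20b, miR-19a and miR-690 without any of several arrays, one at a time. The replicate block gave 38 calls, and since same-numbered arrays did not deviate together (correlations of -0.21, -0.27 and -0.13), the numbers were not taken as pairs. The median log2 fold change of all tested miRNAs moved from 0.14 to 0.69 without scaling, to 0.32 with the slide as a block or on slide 1 alone, and to -0.23 with normexp.

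Directions that turned did so mainly without scaling, with quantile normalization or with normexp, and the cause was not tested. With normexp, the log2 fold changes were -0.12 for miR-25, -0.10 for miR-210, -0.15 for miR-331-3p, -0.14 for miR-140*, -0.18 for miR-93, -0.21 for miR-322, -0.19 for miR-221, -0.19 for miR-20b, -0.0147 for miR-106b, -0.24 for miR-142-5p and 0.11 for miR-21. Without scaling they were 0.27 for miR-22, 0.22 for miR-194, 0.21 for miR-122, 0.16 for miR-192, 0.0133 for miR-29c, 0.61 for miR-21 and 0.55 for miR-30c. With quantile normalization they were 0.98 for miR-22, 0.31 for miR-122, 0.40 for miR-192 and 0.77 for miR-21. MiR-21 was at 0.21 with the slide as a block, on slide 1 alone and without syngeneic replicate 3, and leaving out one array gave -0.25 to 0.21, with 0.06 without day 8 replicate 2. MiR-15a was at -0.0219 with the 75th percentile over all miRNAs and -0.10 with median scaling, and leaving out one array gave -0.0796 (without syngeneic replicate 1) to 0.15, with a value just below 0 without day 8 replicate 3. For miR-30c, leaving out one array gave -0.25 to 0.0256, the highest without syngeneic replicate 1.

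Between day 8 and day 5, the methods' t-test called 36 miRNAs unadjusted and 9 after adjustment. Limma called 2 there (23 at an unadjusted p under 0.05). It called 7 without scaling, 8 with the brightest probe, 1 with detection on all 6 arrays and 19 with only these groups. It called 0 with normexp, without a filter, with detection on all 15 arrays, with the floor divided by 4 and with the slide as a block (13 to 29 at an unadjusted p under 0.05). Leaving out one array gave 0 to 4, and the replicate block 2. Between day 8 and day 14, the methods' t-test called 34 miRNAs unadjusted and 10 after adjustment. Limma called 6 there (22 at an unadjusted p under 0.05). It called 2 without scaling (both lower on day 8) and 19 with only these groups. It called 0 with the 75th percentile over all miRNAs, without a filter, with the floor divided by 4 and with the replicate block (9 to 24 at an unadjusted p under 0.05). Leaving out one array gave 0 to 5 calls. With median scaling, 6 of 8 calls were lower on day 8. Signals close to background limit the fold changes of dim miRNAs, which the floor understates.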
